A study of Mus musculus with 12 samples.

Results

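The vascular calcification regulators described here are 8 genes linked to the forming of calcium phosphate in an artery wall. The 8 are Mgp, Spp1, Enpp1, Alpl, Nt5e, Slc20a1, Slc20a2 and Runx2. They were chosen by name, as the rows of the deposited gene table that carry these symbols, and each symbol matched 1 gene. All 8 passed the filter on low counts and were among 24660 genes tested, of 50600 genes in the count files. RNA sequencing was done on descending thoracic aorta, from the left subclavian branch down to the diaphragm, in C57BL/6J mice with 1 functional copy of the elastin gene (Eln+/-). The heterozygous deletion was in every mouse, controls included, so no group had full elastin dosage, and the whole tissue was used, with all cell types of the wall in 1 extract. The off-drug mice (n = 4) had drunk minoxidil, a blood pressure drug that relaxes arteries by opening potassium channels, for 2 weeks from 2.5 months of age and then plain water for 1 week. The on-drug mice (n = 4) had the same 2 weeks of minoxidil and no time off it, and the control mice (n = 4) drank plain water. All samples carried a labelled age of 3 months, although the schedule makes the off-drug mice 1 week older than the on-drug mice at harvest. The study's design gives 4 mice per group, and each group has 4 numbered libraries, so p-values rest on the spread between mice.

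Pyrophosphate is a major inhibitor of mineral in an artery. ENPP1 makes pyrophosphate from ATP outside the cell, the ANKH protein (Ank in the mouse) lets ATP and pyrophosphate out, and tissue-nonspecific alkaline phosphatase, the product of Alpl, destroys pyrophosphate and frees phosphate. NT5E (CD73) turns the AMP left by ENPP1 into adenosine, which lowers alkaline phosphatase activity, and people who lack NT5E develop arterial calcification. Matrix Gla protein, the product of Mgp, is a secreted inhibitor that needs vitamin K for its activity, and mice without it calcify their arteries. Osteopontin (Spp1) binds mineral and is made by macrophages and by activated smooth muscle. The phosphate carriers PiT-1 (Slc20a1) and PiT-2 (Slc20a2) bring phosphate into the cell, and RUNX2 is the transcription factor of the bone-forming programme.

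The deposited files give raw read counts per gene, and levels are given here as CPM, edgeR's counts divided by library size after scaling with TMM factors. Fold changes, standard errors (SE) and p-values came from edgeR's quasi-likelihood test on all 12 libraries together, two-sided, with Benjamini-Hochberg adjustment over all 24660 genes. A gene was called changed where its adjusted p was below 0.05. The libraries held 41524501 to 109423243 counts, a total that repeats reads assigned to more than 1 gene. Between off-drug and on-drug mice 12.4% of all tested genes were called, 5.44% higher and 6.92% lower. Between off-drug mice and controls the share was 12%, with 6.27% higher and 5.77% lower. Between on-drug mice and controls it was 7.07%, with 4.13% higher and 2.94% lower. The split depended on scaling: on drug against control it was 1018 higher and 725 lower with TMM and 1038 higher and 388 lower without composition factors, and off drug against control it was 1545 and 1422 with TMM and 1870 and 844 without. Smooth muscle markers (Acta2, Myh11, Tagln, Cnn1, Smtn and Lmod1) summed to between 15828 and 20740 CPM in every library, so markers of the labelled tissue were abundant. The clock gene Arntl averaged 1.09 CPM off drug, 9.25 CPM on drug and 17.2 CPM in controls, and the hour of collection is not in the labels. Its part, and that of red cell transcripts, which summed to 2037 to 4799 CPM off drug, 3876 to 5997 CPM on drug and 4922 to 20556 CPM in controls, was not tested for any gene below. Fat markers summed to 20.9, 17.9, 180 and 171 CPM in off-drug libraries, 81.1 to 173 CPM on drug and 38.2 to 244 CPM in controls. Skeletal muscle markers summed to 5.26 to 15.2 CPM, 4.97 to 6.45 CPM and 3.22 to 4.70 CPM in the same order. The part of attached fat or muscle was not tested either.

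The calcification regulators moved in different directions. Off drug, the inhibitors Mgp and Enpp1 were higher than in either other group, Alpl was lower than on drug, and Nt5e was lower than in controls. On drug, Alpl was higher and Enpp1 lower than in controls. Counted by comparison, 3 of the 8 genes were called between off-drug and on-drug mice (2 higher and 1 lower, against a background of 12.4%), 3 of 8 between off-drug mice and controls (2 higher and 1 lower, against 12%) and 2 of 8 between on-drug mice and controls (1 higher and 1 lower, against 7.07%). The median log2 fold change of the 8 genes was 0.08, 0.22 and -0.01 in these comparisons, against -0.00107, -0.00767 and 0.0049 for all tested genes. With 8 genes these counts describe the genes and set nothing apart about the list. The comparisons share groups, so they are not separate evidence.

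**Figure D1:**
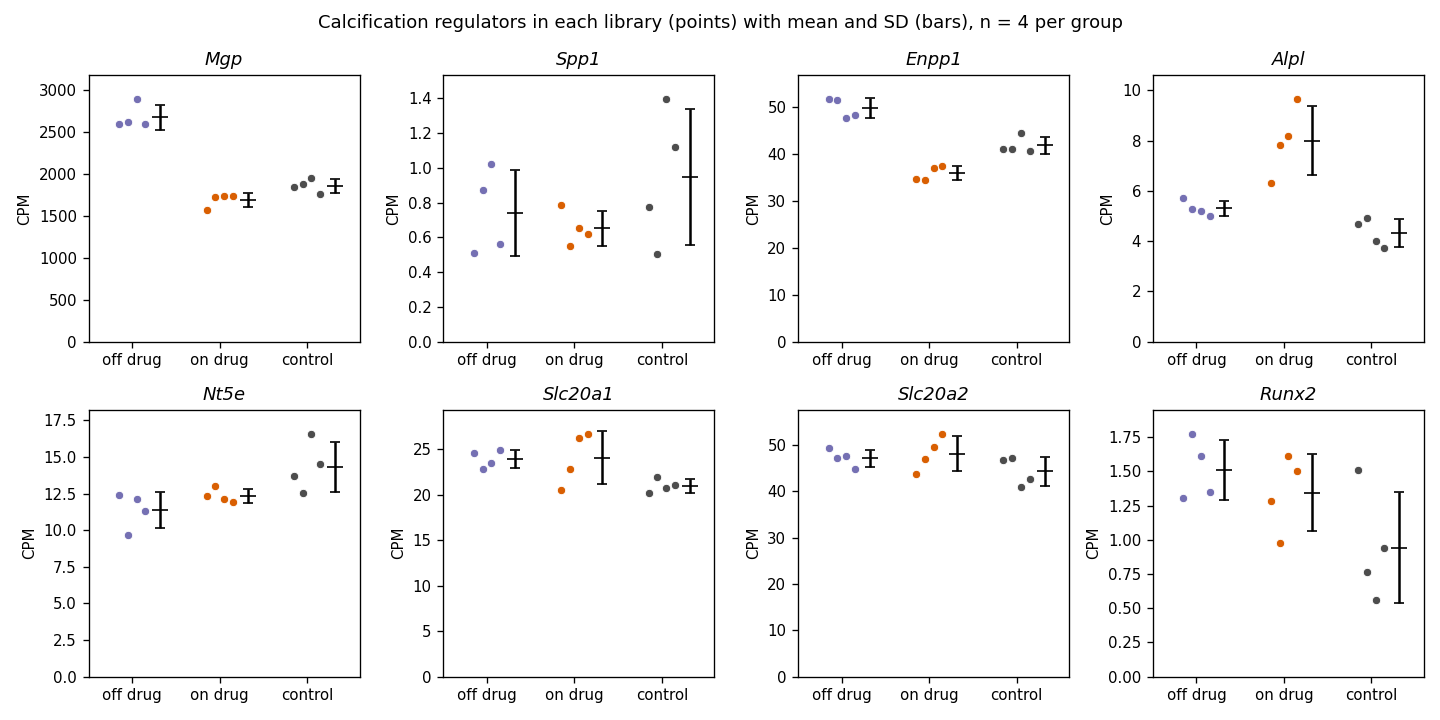
CPM (y axes, each from 0) of the 8 calcification regulators in each library (points) with the mean and SD (bars) of the 4 libraries of each group (x axes). The off-drug points of Mgp and Enpp1 lie above all others, the on-drug points of Alpl lie above all others, and the groups of Spp1, Slc20a2 and Runx2 overlap.

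**Figure D2:**
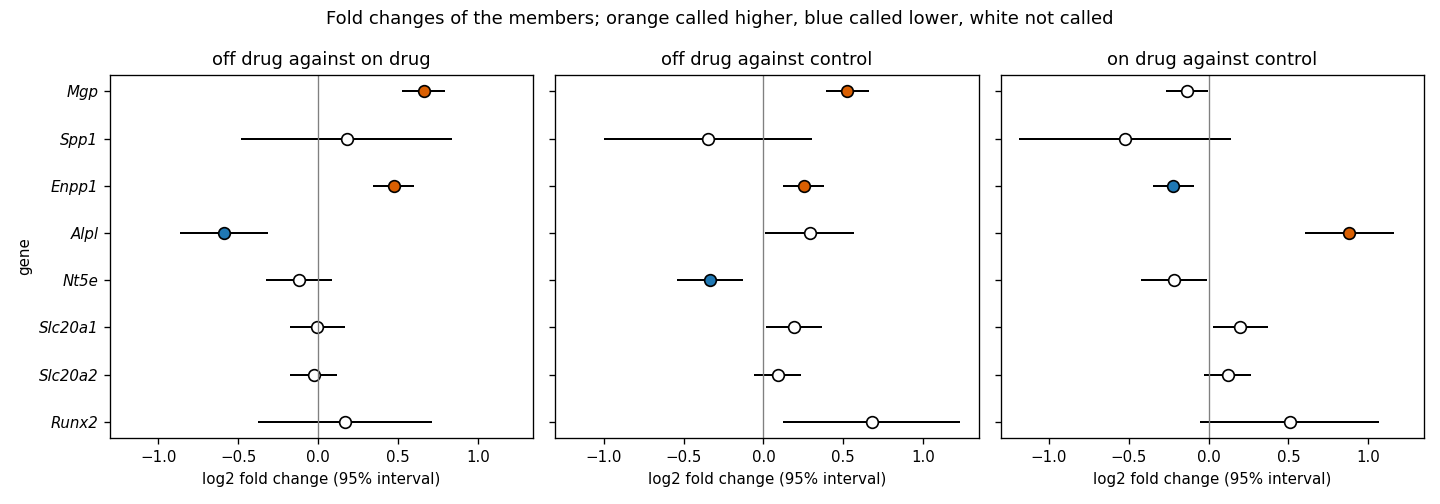
Log2 fold changes (x axes) of the 8 genes (rows) with 95% intervals in the 3 comparisons; filled points passed an adjusted p of 0.05. Mgp and Enpp1 were called higher and Alpl lower off drug against on drug, and the widest intervals belong to Spp1 and Runx2, which had the fewest reads.

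Alpl and Enpp1 act on pyrophosphate from opposite sides and were called in opposite directions off drug against on drug, and also on drug against control, where the Enpp1 call was lost in 6 of 21 other settings, so the sequence ahead of their starts is shown. RefSeq's promoter table for build GRCm38.p6 held entries for 6 of the 8 genes, and the 250 bases before each start of Alpl (which has 2 listed starts) and Enpp1 are given 5′ to 3′. Capitals mark 4 searched motifs on either strand: the RUNX core TGTGGT, which reads ACCACA on the opposite strand, then the E-box CACGTG, then the GC box GGGCGG, and lastly the TATA box TATAAA, which reads TTTATA on the opposite strand.
Alpl start 1, chr4:137796385-137796634, minus strand: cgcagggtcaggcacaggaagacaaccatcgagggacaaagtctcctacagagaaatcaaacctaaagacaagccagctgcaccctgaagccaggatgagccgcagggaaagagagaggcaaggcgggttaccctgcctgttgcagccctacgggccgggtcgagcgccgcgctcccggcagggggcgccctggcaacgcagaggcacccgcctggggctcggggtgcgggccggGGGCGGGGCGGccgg
Alpl start 2, chr4:137766476-137766725, minus strand: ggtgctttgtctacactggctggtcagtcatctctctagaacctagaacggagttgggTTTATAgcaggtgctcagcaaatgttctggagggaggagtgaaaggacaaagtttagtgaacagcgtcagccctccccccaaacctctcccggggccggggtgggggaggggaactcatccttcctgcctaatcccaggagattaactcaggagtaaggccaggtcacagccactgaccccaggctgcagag
Enpp1, chr10:24712160-24712409, minus strand: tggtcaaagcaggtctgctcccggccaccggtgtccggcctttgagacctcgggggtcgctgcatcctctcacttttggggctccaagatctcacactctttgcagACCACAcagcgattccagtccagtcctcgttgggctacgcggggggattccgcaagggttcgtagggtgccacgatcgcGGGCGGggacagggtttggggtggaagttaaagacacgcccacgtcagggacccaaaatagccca
The sequence before the first Alpl start was 68.4% G or C and held 2 GC boxes that overlap by 1 base, the first beginning 15 bases before the start. The sequence before the second held 1 TATA box on the reverse strand, 192 bases before the start. The Enpp1 sequence held 1 RUNX core on the reverse strand, 144 bases before the start, and 1 GC box 65 bases before it. Among the 32851 sequences of this length in the table, 32.7% held a GC box, 14.0% a RUNX core, 12.4% a TATA box and 6.02% the E-box. These are matches of letters only, and reads were counted per gene, so the data do not tell which Alpl start the RNA came from.

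Mgp lies on chromosome 6 (136872435 to 136875823, minus strand, GRCm38). Its level was 2598, 2625, 2897 and 2596 CPM in the 4 off-drug libraries, 1567, 1729.7, 1741 and 1742 CPM on drug, and 1842, 1885.5, 1959 and 1764 CPM in controls. Every off-drug library was above every other library, and the on-drug libraries were all below the controls. The mean was 2679 ± 146 CPM off drug, 1695 ± 85.3 CPM on drug and 1862 ± 81.7 CPM in controls (SD, n = 4 each). Off drug against on drug the log2 fold change was 0.66 ± 0.06 (SE, edgeR adjusted p = 1.14e-06), a 1.58-fold higher level. Off drug against control it was 0.52 ± 0.06 (edgeR adjusted p = 1.67e-05), a 1.44-fold higher level. On drug against control it was -0.14 with a 95% interval of -0.26 to -0.01 and did not pass adjustment over all genes (edgeR adjusted p = 0.188). Mgp made up 0.262% to 0.290% of all counts in off-drug libraries, 0.156% to 0.179% on drug and 0.162% to 0.191% in controls, so the off-drug libraries also stood apart with no TMM factor applied. The on-drug and control shares overlapped, so the separation of these groups in CPM rested on the TMM factors.

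Mgp is also made by cartilage cells, and in whole tissue a larger share of a cell type and more RNA per cell cannot be told apart. A list of 9 cartilage markers, of which 7 were tested, summed to 185 to 229 CPM off drug, 179.8 to 215 CPM on drug and 146 to 158 CPM in controls. Nearly all of that sum was Comp and Acan, 2 matrix genes. Against backgrounds of 12.4%, 12% and 7.07%, 1 of the 7 was called higher off drug against on drug (Acan, which encodes the proteoglycan aggrecan), 2 higher off drug against control (Acan and Comp), and 1 higher and 1 lower on drug against control (Comp and Col2a1). Acan was at 58.4 ± 4.41 CPM off drug, 33.4 ± 7.08 CPM on drug and 31.3 ± 2.26 CPM in controls (SD, n = 4 each), with log2 fold changes of 0.81 off drug against on drug (edgeR adjusted p = 0.000392) and 0.90 off drug against control (0.000231). Acan was thus called higher in the same 2 comparisons as Mgp. The other 7 markers were each at or below 2.06 CPM in every library, the highest being Col10a1, and the collagen II gene Col2a1 was at 0.105 to 0.672 CPM off drug, 0.117 to 0.184 CPM on drug and 0.259 to 1.08 CPM in controls. The cartilage factor Sox9, described further on, was also called higher off drug than on drug. Of the 6 smooth muscle markers, 1 was called higher and 1 lower off drug against on drug. Off drug against control 3 were higher, and on drug against control 2 were higher. Of the 5 fibroblast markers, 2 were called lower off drug against on drug, opposite to Mgp, and none in the other comparisons. The backgrounds were the same 12.4%, 12% and 7.07%. The part of cartilage, smooth muscle or fibroblast cells in the Mgp result was not tested.

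Enpp1 lies on chromosome 10 (24637914 to 24712159, minus strand). Its level was 51.7, 51.5, 47.7 and 48.3 CPM in off-drug libraries, 34.6, 34.5, 36.9 and 37.3 CPM on drug, and 41.1, 41.0, 44.4 and 40.6 CPM in controls. The 3 groups did not overlap anywhere: off drug was highest, controls in between and on drug lowest. Off drug against on drug, the log2 fold change was 0.47 ± 0.06 (SE, edgeR adjusted p = 2.3e-05), or 1.39-fold. Off drug against control, it was 0.25 ± 0.06 (edgeR adjusted p = 0.00769), or 1.19-fold. Both calls were kept in all 21 other settings tried. On drug against control, the log2 fold change was -0.22 ± 0.06 (edgeR adjusted p = 0.0265), a level 14.3% lower, and this call was near the threshold. It was lost when control replicate 3 was left out (-0.20, edgeR adjusted p = 0.0867), on-drug replicate 2 (-0.21, 0.0762) or on-drug replicate 3 (-0.24, 0.0527), and also with library size alone (0.134), with no filter (0.0601) and with the 2 groups fitted alone (0.0562). No other annotated gene shares exon sequence with Mgp, Enpp1, Alpl or Nt5e.

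Alpl lies on chromosome 4 (137741733 to 137796384, minus strand) and was among the lower genes of the set, with 230 to 732 reads per library. Its level was 5.72, 5.29, 5.21 and 5.01 CPM in off-drug libraries, 6.31, 7.84, 8.18 and 9.66 CPM on drug, and 4.68, 4.91, 4.02 and 3.73 CPM in controls. The groups did not overlap: all on-drug libraries were above all off-drug libraries, which were all above the controls, and the on-drug libraries were the most spread. The on-drug mean was 7.995 ± 1.37 CPM, against 4.33 ± 0.554 CPM in controls (SD, n = 4 each), a log2 fold change of 0.88 ± 0.13 (SE, edgeR adjusted p = 0.000668) or 1.84-fold. The off-drug mean was 5.31 ± 0.298 CPM (SD, n = 4), and off drug against on drug the log2 fold change was -0.59 ± 0.13 (edgeR adjusted p = 0.00424), a level 33.6% lower. Off drug against control it was 0.29 with a 95% interval of 0.02 to 0.56, which did not pass adjustment (edgeR adjusted p = 0.163). The 2 Alpl calls were kept in all 21 other settings.

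Of 4 endothelial markers, Cdh5 and Vwf were called in the same directions as Alpl, and Pecam1 and Tie1 were not called in any comparison. Off drug against control, where all Alpl libraries were above the controls without a call, no endothelial marker was called (background 12%). Their log2 fold changes there were -0.09 to 0.06. The 4 markers Pecam1, Cdh5, Vwf and Tie1 summed to 527 to 681 CPM off drug, 696 to 827 CPM on drug and 533 to 617 CPM in controls. Cdh5 and Vwf were called lower off drug against on drug and higher on drug against control, 2 of 4 each time, against backgrounds of 12.4% and 7.07%, although the Cdh5 call on drug against control was lost without control replicate 3 (edgeR adjusted p = 0.0556) or on-drug replicate 3 (0.0574). The part of endothelium in the Alpl result was not tested. The 6 bone markers, of which 4 were tested, summed to 688 to 786 CPM off drug, 609 to 866 CPM on drug and 695 to 820 CPM in controls, nearly all of it Sost. Of the 4, 2 were called higher off drug against on drug and 1 lower on drug against control, both opposite in direction to Alpl (backgrounds 12.4% and 7.07%). Phex, a bone endopeptidase whose loss causes phosphate wasting and rickets, was named after its values were seen. It was at 17.7 ± 2.01 CPM off drug, 11.8 ± 0.966 CPM on drug and 19.3 ± 2.16 CPM in controls (SD, n = 4 each), with log2 fold changes of 0.59 off drug against on drug (edgeR adjusted p = 0.000495) and -0.71 on drug against control (0.00041). The other was Sp7, at 1.82 off drug against on drug (edgeR adjusted p = 0.00516). Bglap and Dmp1, made by osteoblasts and osteocytes, stayed at or below 0.264 and 0.192 CPM in every library.

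Set side by side in the same library, Alpl and Enpp1 gave a ratio in which library scaling cancels. Per kilobase of exon, Alpl counts were 0.281, 0.261, 0.278 and 0.264 of Enpp1 counts in off-drug libraries, 0.464, 0.578, 0.564 and 0.658 on drug, and 0.290, 0.304, 0.230 and 0.234 in controls. The on-drug libraries were all above the others, and the off-drug libraries lay inside the range of the controls. The mean ratio was 0.271 ± 0.00998 off drug, 0.566 ± 0.0796 on drug and 0.264 ± 0.0383 in controls (SD, n = 4 each). It is given as a description with no test, and RNA levels say nothing of the activity of either enzyme.

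**Figure D3:**
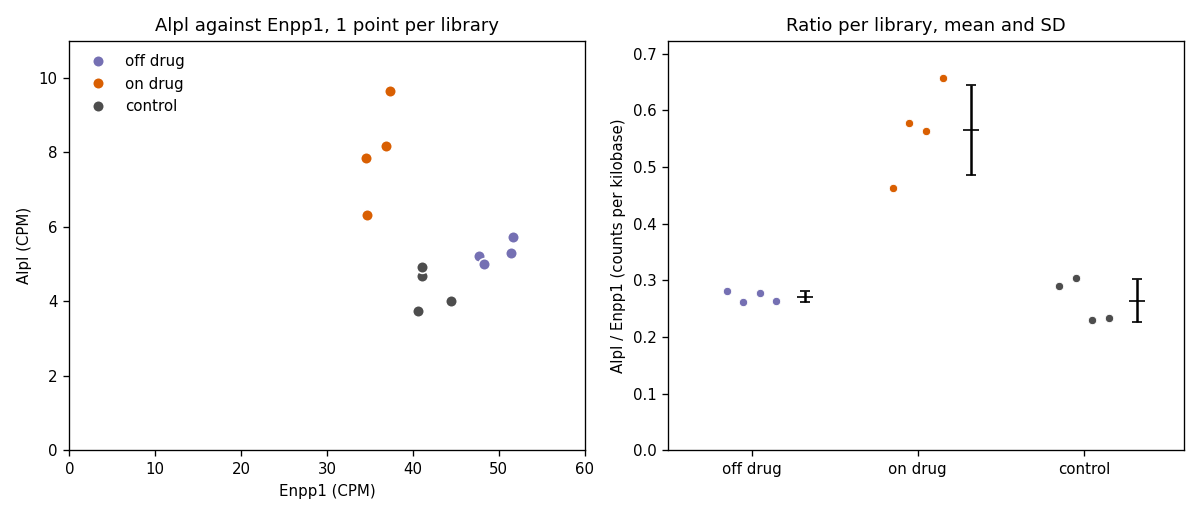
Left, Alpl (y axis, CPM) against Enpp1 (x axis, CPM) in each of the 12 libraries; right, the ratio of Alpl to Enpp1 counts per kilobase in each library (points) with mean and SD (bars, n = 4 per group). The on-drug libraries stand apart at the upper left, with ratios of 0.464 to 0.658, and off-drug and control ratios share the range of 0.230 to 0.304.

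Nt5e lies on chromosome 9 (88327197 to 88372092, plus strand). Its level was 12.4, 9.70, 12.1 and 11.3 CPM in off-drug libraries, 12.3, 12.99, 12.1 and 11.95 CPM on drug, and 13.7, 12.5, 16.6 and 14.6 CPM in controls. The off-drug libraries were all below the controls, by a narrow gap, and the on-drug libraries overlapped both. Off drug against control the log2 fold change was -0.33 ± 0.10 (SE, edgeR adjusted p = 0.0281), a level 20.7% lower. The call was lost without control replicate 3 (-0.26, edgeR adjusted p = 0.111), control replicate 4 (-0.33, 0.0616), off-drug replicate 2 (-0.26, 0.0971) or off-drug replicate 4 (-0.33, 0.0636), and also with library size alone (0.0698) and with the 2 groups fitted alone (0.0519). On drug against control the value was -0.22 (edgeR adjusted p = 0.185), and off drug against on drug it was -0.12 (0.495). The 8 macrophage markers summed to 649 to 753 CPM off drug, 801 to 982 CPM on drug and 774.5 to 974.8 CPM in controls, and 4 of 8 were called lower off drug against control, where the background of lower calls was 5.77%. Off drug against on drug, where Nt5e was not called, 5 of 8 were lower (background of lower calls 6.92%). On drug against control 1 of the 8 macrophage markers was higher (background of higher calls 4.13%). Their part in the Nt5e result was not tested.

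The phosphate carriers Slc20a1 and Slc20a2 did not pass the edgeR test in any of the 3 comparisons, nor with DESeq2 or limma-voom, although Slc20a1 had an unadjusted edgeR p of 0.0267 off drug against control and 0.0231 on drug against control. Slc20a1 (chromosome 2, 129198764 to 129211616, plus strand) was at 24.6, 22.8, 23.4 and 25.0 CPM in off-drug libraries, 20.6, 22.9, 26.2 and 26.7 CPM on drug, and 20.1, 21.9, 20.8 and 21.0 CPM in controls. The off-drug libraries were all above the controls, and the on-drug libraries overlapped both groups. The log2 fold change was 0.19 off drug against control (95% interval 0.02 to 0.36, edgeR adjusted p = 0.132) and 0.20 on drug against control (0.03 to 0.36, 0.142). Without on-drug replicate 1, the lowest of its group, on drug against control reached 0.26 (edgeR adjusted p = 0.0309). Off drug against on drug it was -0.01, with a 95% interval of -0.17 to 0.16, and 0.01 with library size alone.

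Slc20a2, on chromosome 8 (22476788 to 22569612, plus strand), was at 49.3, 47.1, 47.6 and 44.8 CPM in off-drug libraries, 43.6, 46.9, 49.5 and 52.4 CPM on drug, and 46.7, 47.1, 40.8 and 42.6 CPM in controls. The 3 groups overlapped. Its log2 fold changes were 0.09 off drug against control (95% interval -0.05 to 0.23), 0.12 on drug against control (-0.02 to 0.26) and -0.03 off drug against on drug (-0.17 to 0.11). Differences within these intervals were not detectable with these samples. Counts per kilobase of Slc20a2 were 1.77 ± 0.109 times those of Slc20a1 off drug, 1.80 ± 0.0919 times on drug and 1.90 ± 0.141 times in controls (SD, n = 4 each), and the ranges overlapped. Reads were counted without strand and for every gene they touch, and both carriers share exon sequence with genes on the opposite strand (Gm4430 and 9830144P21Rik for Slc20a1, Smim19 for Slc20a2), so their levels may include reads of those genes.

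Runx2 and Spp1 were at the bottom of the set. Runx2 (chromosome 17, 44495987 to 44814797, minus strand) had 72, 142, 126 and 142 reads in off-drug libraries, 140, 50, 69 and 114 on drug, and 97, 50, 32 and 67 in controls. In CPM that was 1.31, 1.77, 1.61 and 1.35 off drug, 1.29, 0.979, 1.61 and 1.50 on drug, and 1.51, 0.763, 0.559 and 0.940 in controls. Control replicate 1 lay within the off-drug range, and the other 3 controls were below every off-drug library. The log2 fold change was 0.68 off drug against control (95% interval 0.13 to 1.23, edgeR adjusted p = 0.102), 0.51 on drug against control (-0.04 to 1.06, 0.267) and 0.17 off drug against on drug (-0.37 to 0.71, 0.747). None of these was called by edgeR, DESeq2 or limma-voom (the unadjusted edgeR p off drug against control was 0.0178). Of 21 other settings, off drug against control passed only without control replicate 1 (0.99, edgeR adjusted p = 0.0117).

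Spp1 (chromosome 5, 104435118 to 104441050, plus strand) had 28, 70, 80 and 59 reads in off-drug libraries, 86, 28, 28 and 47 on drug, and 50, 33, 80 and 80 in controls. In CPM the values were 0.508, 0.875, 1.02 and 0.562 off drug, 0.790, 0.548, 0.655 and 0.620 on drug, and 0.777, 0.504, 1.397 and 1.122 in controls, and all groups overlapped. The log2 fold changes were -0.35 off drug against control (95% interval -0.99 to 0.30), -0.53 on drug against control (-1.18 to 0.13) and 0.18 off drug against on drug (-0.48 to 0.84). Differences within these intervals were not detectable at this depth, and no unadjusted edgeR p was below 0.11. Spp1 shares exon sequence with Gm42793, and Runx2 with Runx2os1 on the opposite strand.

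Compared with one another, per kilobase of exon, Mgp stood far above the other 7 genes, at 2257 ± 123 CPM per kilobase off drug, 1428 ± 71.9 on drug and 1569 ± 68.8 in controls (SD, n = 4 each). By this measure Mgp ranked 30 of 24660 tested genes off drug, 43 on drug and 38 in controls. In controls the order below it was Slc20a2 (7.13 CPM per kilobase), Enpp1 (4.08), Slc20a1 (3.76), Nt5e (1.67), Alpl (1.07), Spp1 (0.576) and Runx2 (0.107), and no 2 neighbours in that order overlapped. On drug the places of Enpp1 (3.49) and Slc20a1 (4.31) were exchanged, as were those of Nt5e (1.44) and Alpl (1.98), again without overlap. Off drug the order was that of controls, but Nt5e (1.32) and Alpl (1.32) overlapped. The spread within groups also differed between genes: the coefficient of variation was 3.58% to 12.03% for Slc20a1 and 4.16% to 4.25% for Enpp1, but 14.6% to 43.3% for Runx2 and 15.5% to 41.2% for Spp1, the 2 genes with the fewest reads.

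The genes whose pattern was most like that of each called regulator were found by the root mean square difference of centred log2 CPM over the 12 libraries, among 12297 genes whose mean log2 CPM reached 1. For Mgp these were Tmem41a, Zbtb14 and Tbc1d2b (differences of 0.0937, 0.0988 and 0.100, against 0.291 for the spread of Mgp around its own mean). Enpp1 was followed most closely by Atic, which encodes a purine synthesis enzyme, Cldn12, which encodes a claudin, and Vcam1, which encodes a leukocyte adhesion molecule (0.0581, 0.0621 and 0.0681, against 0.201). For Alpl they were Plec, Dsp and Hspg2, which encode the linker proteins plectin and desmoplakin and the basement membrane proteoglycan perlecan (0.148, 0.155 and 0.163, against 0.396). Nt5e was closest to Ppp1r11 (0.0695, against 0.182) and to the pseudogenes Ybx1-ps2 and Rpl36-ps3, whose counts include reads that map to several places. The 12 points share libraries and groups, so likeness here describes the group pattern. It did not always bring the same calls. Atic, Cldn12 and Vcam1 were not called on drug against control (edgeR adjusted p = 0.0857 to 0.178), where Enpp1 was. Rpl36-ps3 was called in no comparison, and Dsp was called off drug against control (0.000732), where Alpl was not.

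A wider set of 88 genes from 6 lists around the regulators, drawn up with earlier results of these data known, also held calls in both directions. Of the 76 that were tested, 11 were higher and 14 lower off drug against on drug, 7 higher and 10 lower off drug against control, and 6 higher and 7 lower on drug against control. Over all tested genes the shares were 5.44% higher and 6.92% lower, 6.27% and 5.77%, and 4.13% and 2.94% in the same order of comparisons. The 12 that failed the count filter included the phosphate carriers of the Slc34a family, the osteocalcin genes Bglap and Bglap2 and the bone matrix genes Dmp1, Mepe and Dspp.

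The list named pyrophosphate and adenosine has 17 genes and also holds Enpp2, Smpd3 and the annexins Anxa2, Anxa5 and Anxa6. Of the 17, 3 were called higher and 5 lower off drug against on drug. Off drug against control it was 2 and 4, and on drug against control 2 and 1. Backgrounds in either direction were 12.4%, 12% and 7.07% in this order. Enpp2, Smpd3 and Anxa2 made up all calls on drug against control. Smpd3, Anxa2 and Anxa5 were among the 5 lower off drug against on drug. Ank, the exporter that works beside ENPP1, was at 73.0, 80.0, 78.7 and 74.8 CPM off drug, 47.7, 58.2, 65.5 and 60.1 CPM on drug, and 57.2, 53.6, 53.7 and 51.0 CPM in controls. All 4 off-drug libraries were above the rest, with log2 fold changes of 0.41 ± 0.08 against on drug (SE, edgeR adjusted p = 0.00142) and 0.51 ± 0.08 against control (0.000263). Enpp2, which encodes autotaxin, a relative of ENPP1 that makes lysophosphatidic acid, was at 12.4 ± 2.16 CPM off drug, 4.26 ± 1.14 CPM on drug and 12.1 ± 1.73 CPM in controls (SD, n = 4 each). It fell by 1.50 on the log2 scale on drug against control (edgeR adjusted p = 0.000393) and was 1.54 higher off drug than on drug (6.13e-05). Smpd3, a sphingomyelinase needed for bone mineralization in mice, was higher on drug than in controls by 0.89 ± 0.12 (edgeR adjusted p = 0.000253) and was lower off drug than on drug, at -0.79 ± 0.12 (0.00015). Anxa2, a calcium-dependent membrane-binding annexin, was at 176 ± 13.5 CPM off drug, 300.5 ± 21.0 CPM on drug and 223 ± 15.6 CPM in controls (SD, n = 4 each), and was called lower off drug against on drug (-0.77 ± 0.07, edgeR adjusted p = 1.14e-06) and control (-0.34 ± 0.07, 0.0037) and higher on drug against control (0.43 ± 0.07, 0.00158).

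Among the phosphate sensing and transport genes, 5 of 10 were tested, and the 1 call over the 3 comparisons (backgrounds 12.4%, 12% and 7.07%) was Fgfr1, a receptor of FGF23, at 0.32 ± 0.06 on drug against control (SE, edgeR adjusted p = 0.00522). Of the 9 tested genes for Gla proteins and the vitamin K cycle, 1 was higher and 1 lower off drug against on drug, and 2 were higher and 1 lower off drug against control (backgrounds 12.4% and 12%). Nqo1, a quinone reductase that can reduce vitamin K, was at 32.04 ± 2.02 CPM off drug, 22.3 ± 1.15 CPM on drug and 25.5 ± 2.24 CPM in controls (SD, n = 4 each). It rose off drug against both on drug (0.53 ± 0.07, edgeR adjusted p = 9.53e-05) and control (0.33 ± 0.07, 0.0066). Ggcx, the carboxylase that activates matrix Gla protein, was at 68.8 ± 2.96 CPM off drug, 81.1 ± 3.18 CPM on drug and 79.1 ± 4.94 CPM in controls (SD, n = 4 each). Its log2 value was -0.24 off drug against on drug (edgeR adjusted p = 0.0109, 0.0502 without off-drug replicate 3 and 0.054 with library size alone) and -0.20 off drug against control (0.0309, but 0.0508 to 0.0948 without control replicate 1 or off-drug replicate 2, 3 or 4, 0.203 with library size alone and 0.0574 with the 2 groups fitted alone). Axl, a receptor for the Gla protein GAS6, was 0.23 higher off drug than in controls (edgeR adjusted p = 0.0267), and that call was lost without control replicate 2, 3 or 4 or any 1 of the 4 off-drug libraries (0.0512 to 0.0906).

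The 14 osteochondrogenic factors, all tested, had 4 higher and 1 lower off drug against on drug, 1 and 1 off drug against control, and 3 lower on drug against control, where the backgrounds in either direction were 12.4%, 12% and 7.07%. The 2 of 14 off drug against control are close to the background. Msx2, a homeobox factor of bone and of calcifying smooth muscle, had 49, 52, 69 and 106 reads in off-drug libraries, 3, 2, 0 and 1 on drug, and 78, 62, 59 and 83 in controls. The on-drug libraries were far below all others, and the off-drug and control libraries overlapped. Summed over libraries and scaled by library size with TMM factors, Msx2 on drug was 0.0248 of the off-drug level (95% interval 0.00904 to 0.0547, counting error only) and 0.0197 of the control level (0.00718 to 0.0435). The test passed off drug against on drug (edgeR adjusted p = 1.75e-07) and on drug against control (1.08e-06), and not off drug against control (0.452). Sox9, the main cartilage factor, was at 1.31 ± 0.230 CPM off drug, 0.634 ± 0.122 CPM on drug and 0.811 ± 0.2 CPM in controls (SD, n = 4 each). It was called higher off drug than on drug (edgeR adjusted p = 0.00758), and not off drug against control (0.0702). Sp7, which acts after RUNX2 in bone formation, was at 0.885 ± 0.486 CPM off drug, 0.258 ± 0.0699 CPM on drug and 0.4995 ± 0.172 CPM in controls (SD, n = 4 each). Sp7 was also called higher off drug than on drug (edgeR adjusted p = 0.00516), and not off drug against control (0.168). Off-drug replicates 1 and 2 (0.417 and 0.562 CPM) lay inside the control range of 0.252 to 0.653 CPM, and replicates 3 and 4 (1.47 and 1.09 CPM) above it. Atf4, a stress-response factor that osteoblasts also use, was lower than in controls both off drug (-0.47 ± 0.07, edgeR adjusted p = 0.000152) and on drug (-0.43 ± 0.07, 0.00111).

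**Figure D4:**
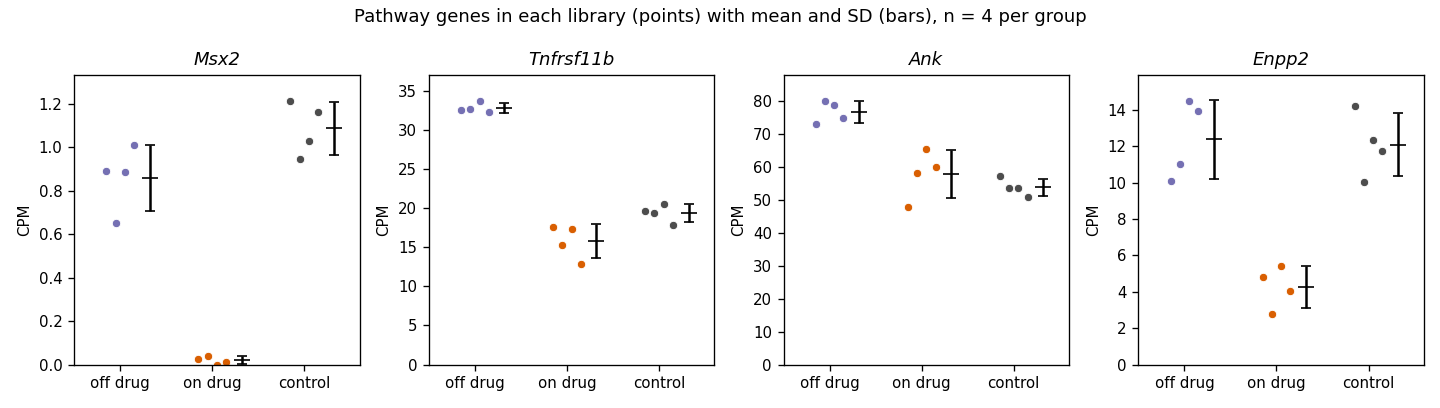
CPM (y axes from 0) of Msx2, Tnfrsf11b, Ank and Enpp2 in each library (points) with mean and SD (bars, n = 4 per group). Msx2 had 0 to 3 reads per library on drug, Enpp2 was lowest on drug, and Tnfrsf11b and Ank were highest off drug.

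Of the 17 genes of BMP signalling, the pathway that drives bone genes and that matrix Gla protein antagonizes, 2 were higher and 3 lower off drug against on drug, 1 and 2 off drug against control, and 1 and 2 on drug against control (backgrounds in either direction 12.4%, 12% and 7.07%). With 17 genes, these counts set nothing apart about the list. The ligand Bmp2 was at 7.11 ± 0.570 CPM off drug, 3.80 ± 1.11 CPM on drug and 5.99 ± 0.919 CPM in controls (SD, n = 4 each). It was higher off drug than on drug by 0.92 ± 0.18 (SE, edgeR adjusted p = 0.00257). On drug against control its value was -0.67 (edgeR adjusted p = 0.0343), a call lost without control replicate 1, 2 or 3 or on-drug replicate 4 (0.0688 to 0.0976), with library size alone (0.0626) and with the 2 groups fitted alone (0.0733). Id1, a direct BMP target, went the other way off drug, at 56.4 ± 5.70 CPM off drug, 84.7 ± 5.21 CPM on drug and 79.2 ± 13.5 CPM in controls, with edgeR adjusted p = 0.00124 against on drug and 0.00568 against control. Bmper, which encodes a BMP-binding protein, was lower off drug than on drug by the test (-0.79 ± 0.19, edgeR adjusted p = 0.00978). Eng, an endothelial co-receptor, was 0.49 ± 0.09 higher on drug than in controls (edgeR adjusted p = 0.00347), as 2 of the 4 endothelial markers were. Off drug against control Eng stood at 0.30 (edgeR adjusted p = 0.0343), a call lost without control replicate 2 or 3 or off-drug replicate 1, 3 or 4 (0.0703 to 0.136) and with the 2 groups fitted alone (0.0517).

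In the list of osteopontin receptors and mineral-binding proteins, 14 of 18 genes were tested, with 1 higher and 4 lower off drug against on drug, 1 and 2 off drug against control, and 2 and 1 on drug against control (backgrounds in either direction 12.4%, 12% and 7.07%). Tnfrsf11b, which encodes osteoprotegerin, a secreted decoy for RANK ligand whose loss calcifies arteries in mice, was at 32.5, 32.7, 33.7 and 32.3 CPM off drug, 17.6, 15.2, 17.3 and 12.9 CPM on drug, and 19.6, 19.4, 20.6 and 17.8 CPM in controls. All off-drug libraries were well above all others, with log2 fold changes of 1.06 ± 0.09 against on drug (SE, edgeR adjusted p = 3.43e-07) and 0.76 ± 0.09 against control (1.3e-05). On drug against control the value was -0.30 (edgeR adjusted p = 0.0462), a call lost without control replicate 1, 2 or 3, on-drug replicate 2 or 4, or any 1 of the 4 off-drug libraries (0.0526 to 0.154), and with library size alone, a non-robust fit or the 2 groups fitted alone (0.0574 to 0.122). Its ligand gene Tnfsf11 failed the count filter, while Tnfrsf11a, which encodes the receptor RANK, was lower off drug than on drug (-0.43 ± 0.07, edgeR adjusted p = 0.000233) and higher on drug than in controls (0.33 ± 0.07, 0.00635). The osteopontin receptor Cd44 was at 26.3 ± 3.37 CPM off drug, 47.7 ± 6.97 CPM on drug and 33.3 ± 4.59 CPM in controls (SD, n = 4 each). It fell off drug against on drug by 0.86 ± 0.12 (edgeR adjusted p = 0.000217), and on drug against control it was 0.52 (0.0166), a call lost without control replicate 1 or 2 or on-drug replicate 3 (0.0503 to 0.0613). Itga9, an integrin chain that binds osteopontin, was at 503 ± 23.9 CPM off drug, 690.2 ± 56.6 CPM on drug and 615 ± 47.3 CPM in controls, with edgeR adjusted p = 0.000218 off drug against on drug and 0.0107 off drug against control (0.0647 with library size alone).

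**Figure D5:**
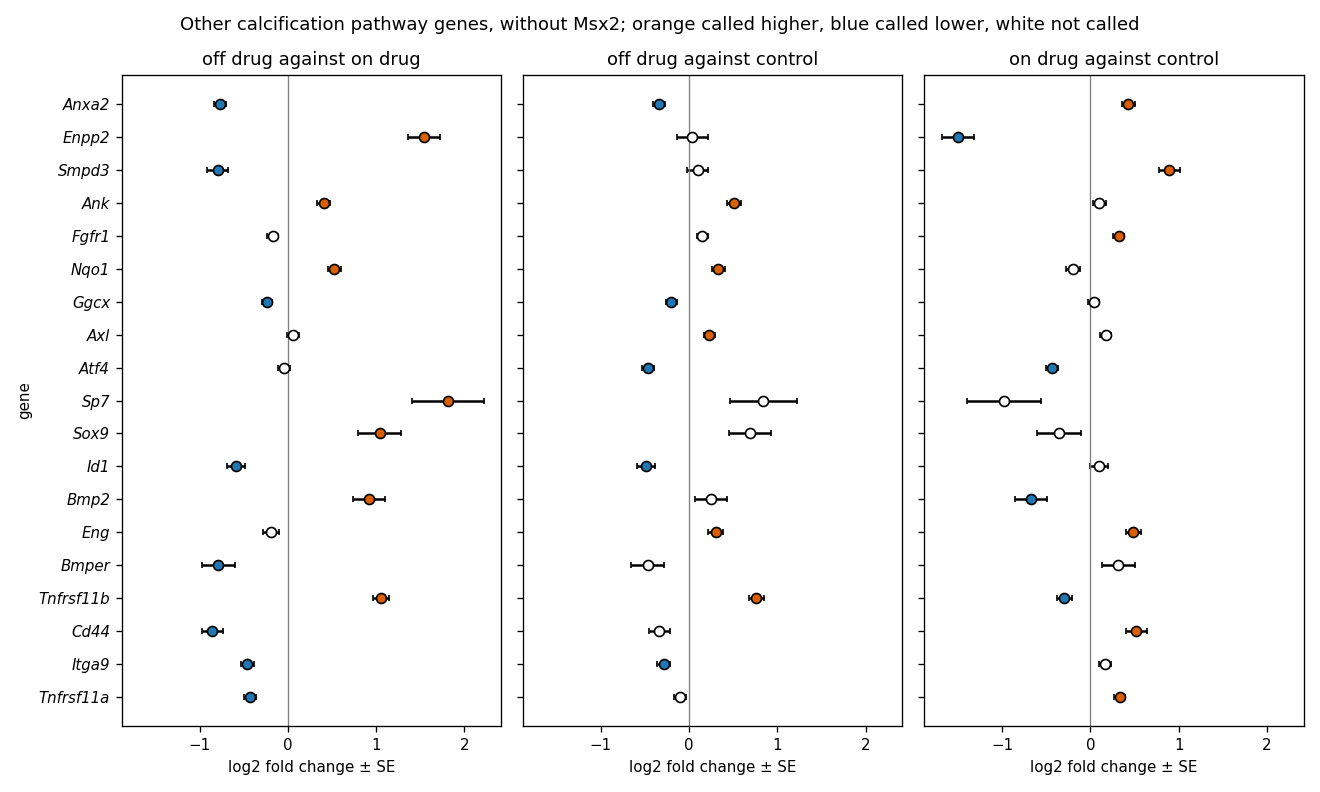
Log2 fold changes with SE (x axes) of 19 called genes from the 6 wider lists (rows), in the 3 comparisons; filled points passed an adjusted p of 0.05. Tnfrsf11b, Ank, Nqo1, Enpp2 and Bmp2 lie to the right and Anxa2, Smpd3, Cd44 and Id1 to the left off drug against on drug, and Msx2 is left out because its fitted values (5.22 and -5.56) rest on 6 on-drug reads.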

How the data were processed

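Per the file headers, the authors counted reads over exons with featureCounts 1.4.6-p3, using GENCODE release M13 and a STAR index of version 2.5.3a. The deposited counts are whole numbers and not normalized. The genome build was GRCm38, and STAR and DESeq2 were also used, per the submitters' processing notes. The options in the headers counted paired reads for every place and every gene they map to, skipped duplicates and set no strand. Exon length per gene, a column of another unit in base pairs, was also taken from the deposited count files. The deposited table of all genes holds log2 values made by the authors, which equal log2(count / DESeq2 size factor + 1) in all 12 libraries to within rounding, and it was used for gene symbols and positions only.

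The analysis used edgeR 4.0.16 in R 4.3.3: filterByExpr (minimum count 10, minimum total 15), TMM factors, a robust glmQLFit with 3 groups over 12 libraries, and glmQLFTest for 3 contrasts. Standard errors came from the F statistic, and 95% intervals from the moderated degrees of freedom. Totals of 41524501 to 109423243 counts make counting error small except for genes near the filter, and intervals on read sums cover counting error only. The steps were tested on simulated counts. The 8 genes, the 6 pathway lists and the 9 marker lists were chosen with earlier results of these data known. All 8 were named, as were up to 4 called genes per pathway list by smallest adjusted p and the 3 most alike patterns of each called regulator, leaving out unnamed gene models. Alternatives were other scalings and filters, DESeq2 1.42.0, limma-voom (limma 3.58.1), fits of 2 groups only, without robust estimation or with a replicate block, and each library left out. A smaller deposited gene table was not used.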

Additional observations from a re-analysis of the deposited data

Results flagged for a closer look

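Within groups of 4 libraries, 6 of 90 groups tested over the named genes held 1 library whose gap to its nearest neighbour was over Dixon's 95% critical share of the group's range, and chance gives about 1 in 20. Mgp had such a library off drug (replicate 3, 2897 CPM, above the other 3) and on drug (replicate 1, 1567 CPM, below the other 3). The Mgp calls were kept when either was left out. Enpp1 had one in controls (replicate 3, 44.4 CPM, above the others), and without it the Enpp1 call on drug against control was lost (edgeR adjusted p = 0.0867). Among the wider lists, Anxa2 was low in off-drug replicate 4 (156 CPM), Cd44 was high in off-drug replicate 2 (31.4 CPM) and Itga9 was high in off-drug replicate 1 (538.6 CPM).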

How the results depend on the processing

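The Mgp, Enpp1 and Alpl calls off drug against on drug, the Mgp and Enpp1 calls off drug against control and the Alpl call on drug against control were kept in all 21 settings. The Enpp1 call on drug against control and the Nt5e call off drug against control were each lost in 6 of 21. On drug against control, 1 of the 8 regulators was called with library size alone, with no filter and with the 2 groups alone, and 1 to 3 with 1 library left out (1 without control replicate 3 or replicate 2 or 3 on drug). All 12 libraries enter with library size alone and with no filter, and fewer when libraries or a group are left out. The cause of the lost calls was not tested. The other comparisons gave 2 to 4 (off drug against control) and 3 to 3 (off drug against on drug) with 1 library left out. Over all genes, on drug against control gave 1743 calls, 2740 with DESeq2, 1147 with the 2 groups alone and 803 to 2290 with 1 library left out (906 without control replicate 3, 803 and 918 without replicate 3 or 4 on drug). Leaving out 1 library gave 1989 to 3553 off drug against control and 2254 to 3252 off drug against on drug. Uncalled values near 0 off drug against on drug changed sign: Slc20a1 was 0.0135 with library size alone (adjusted p = 0.955) and -0.0734 to 0.0480 with 1 library left out, Slc20a2 was -0.0694 to 0.0157 and Spp1 was -0.00974 to 0.316. Replicate numbers did not pair samples (correlations of deviations from -0.08 to 0.07), and with number as a block the calls were 2 regulators and 1558 genes on drug against control, 3 and 2791 off drug against control and 3 and 3047 off drug against on drug, while the Axl call off drug against control was lost (adjusted p = 0.0502). Ratios of raw counts without length were lower for Alpl over Enpp1 (0.107 off drug, 0.222 on drug and 0.104 in controls). The stricter filter dropped Spp1. The 3 most alike patterns, checked under other scalings after the data were seen, were unchanged in both. In the same settings, tried for the named cell type markers after the data were seen, the Acan, Vwf and Phex calls were kept, while the Comp call was lost without control replicate 2 or 4 or off-drug replicate 1 off drug against control (adjusted p = 0.0524 to 0.0632) and without replicate 3 on drug, on drug against control (0.057), and the Col2a1 call in 6 settings (0.067 to 0.0955). Depth limits Spp1 and Runx2, with as few as 28 and 32 reads in a library.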
